A study of Mus musculus with 4 samples.

Results

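The genes described here are 37 targets of the hypoxia response and enzymes of glucose use, picked by symbol from the 32285 genes of the count tables: 25 targets of the hypoxia-inducible factors (HIFs) and of glucose and glycogen handling, and 12 glycolytic enzymes. All 37 were present in the tables. They were followed in single-cell RNA-seq of ascites, the fluid that gathers in the abdomen, from female FVB mice. Every mouse had received Br-Luc cells, a luciferase-marked mouse ovarian tumor line, into the peritoneal cavity, and every sample was taken 6 weeks after that injection. All mice got siRNA with locked nucleic acid bases in jetPEI nanoparticles by the same route, either the control siRNA (siCont-LNA, n = 2 libraries) or siRNA against Fxr1 (siFXR1-LNA, n = 2 libraries). Per the study's methods, ascites was pooled over mice for a sample and 2 samples were sequenced per group; the labels' protocol adds a red cell lysis step. The labels do not tie a library to a pool of mice, and the p-values below measure the spread between the libraries of a group. The host's immune and mesothelial cells share the fluid with the tumor cells, and the class named tumor or mesothelial below was not divided between them.

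HIF is a transcription factor whose alpha subunits are hydroxylated and destroyed while oxygen is at hand, and which accumulates when oxygen falls or when inflammatory signals stabilise it. It binds the core letters ACGTG and raises genes that cut oxygen use, move glucose in and lactate out, and call for new vessels. Macrophages in tumors and inflamed tissue, and tumor cells growing as floating clusters, are cells in which this program has been much studied. The listed genes fall into 6 roles: pH and mitochondria (Car9, Ndufa4l2, Higd1a, Bnip3), oxygen sensing and feedback (Egln1, Egln3, Ankrd37, Kdm3a, Mxi1, Bhlhe40, Ddit4), secreted and surface products (Vegfa, Adm, Vldlr, Ndrg1, P4ha1, P4ha2), fuel transport and switches (Slc2a1, Slc16a3, Pdk1, Pfkfb3, Pfkfb4), the 12 glycolytic enzymes (Hk1, Hk2, Pfkp, Pfkl, Aldoa, Tpi1, Gapdh, Pgk1, Pgam1, Eno1, Pkm, Ldha), and glycogen (Gys1, Gbe1, Stbd1).

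The HIF core letters can be seen in the promoters of several of these genes. Promoters were taken from RefSeq on GRCm38.p6 as the 250 bases before to 50 bases after each gene's start, and 34 of the 37 genes matched an entry, all but Bhlhe40, Ndrg1 and Ndufa4l2. ACGTG on either strand was present in 22 of those 34 genes (64.7%), against 5886 of 27025 genes in the whole promoter table (21.8%). Genes with several annotated starts count as holding the letters when any window does; over single windows the shares were 25 of 49 and 19.6% of 32851. The windows below, 1 per gene, show only genes that hold the letters, at the start with the most matches. No letters were found for Adm, Eno1, Gbe1, Gys1, Kdm3a, Pdk1, Pfkfb4, Pfkl, Pfkp, Stbd1, Tpi1 and Vldlr. Of these, Gbe1, Gys1, Stbd1 and Vldlr were called in both macrophages and tumor or mesothelial cells below. Each window reads 5′ to 3′ on the gene's own strand and ends before the start site. ACGTG or its reverse complement CACGT is in capitals, and in CACGTG both overlap. They lie at chr4:43506926-43507025 for Car9 (plus strand), chr12:54204025-54204124 for Egln3 (minus), chr7:138909562-138909661 for Bnip3 (minus), chr4:119108645-119108744 for Slc2a1 (plus), chr2:11502091-11502190 for 1 annotated start of Pfkfb3 (minus), chrX:106186912-106187011 for Pgk1 (plus) and chr7:46845554-46845803 for Ldha (plus). A match describes letters; it is not evidence of binding or of a cause.
Car9: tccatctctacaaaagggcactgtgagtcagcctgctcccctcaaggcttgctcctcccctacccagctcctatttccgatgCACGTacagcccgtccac
Egln3: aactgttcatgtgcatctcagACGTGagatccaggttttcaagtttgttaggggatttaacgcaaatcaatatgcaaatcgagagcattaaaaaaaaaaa
Bnip3: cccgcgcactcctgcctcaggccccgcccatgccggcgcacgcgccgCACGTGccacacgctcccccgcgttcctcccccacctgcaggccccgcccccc
Slc2a1: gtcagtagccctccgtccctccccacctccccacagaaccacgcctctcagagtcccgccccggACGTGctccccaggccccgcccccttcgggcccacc
Pfkfb3: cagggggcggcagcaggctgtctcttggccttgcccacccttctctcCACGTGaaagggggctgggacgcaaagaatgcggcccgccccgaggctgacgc
Pgk1: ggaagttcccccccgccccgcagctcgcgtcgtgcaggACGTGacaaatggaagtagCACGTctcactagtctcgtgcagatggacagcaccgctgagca
Ldha: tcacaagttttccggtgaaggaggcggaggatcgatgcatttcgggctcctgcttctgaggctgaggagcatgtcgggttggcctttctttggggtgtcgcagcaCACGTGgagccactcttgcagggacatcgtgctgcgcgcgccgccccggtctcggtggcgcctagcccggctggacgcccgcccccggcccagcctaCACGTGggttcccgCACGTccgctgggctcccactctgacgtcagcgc

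Pgk1 held the letters 2 times and Ldha 3 times within their 300 bases, the others of these windows 1 time. The window at another annotated start of Ldha held none. The bases just after the Egln3 start and after the Ldha start shown were not found in the GENCODE transcripts of these genes, so these starts rest on RefSeq alone.

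The 4 libraries differed in depth and make-up before any gene was tested. Of 133849 barcodes, 132644 had 100 to 4800 genes and at most 15% mitochondrial UMIs: 36311 and 25115 in the siCont-LNA libraries, 54344 and 16874 in the siFXR1-LNA libraries. The kept barcodes had median UMI counts of 1965 and 2511 in siCont-LNA and of 1349 and 2653 in siFXR1-LNA. Hemoglobin took 30.5% and 43.0% of the UMIs in siCont-LNA and 10.2% in each siFXR1-LNA library, so levels are given as counts per 1000000 UMIs without hemoglobin (CPM). Library pairs shared between 575 and 2846 kept barcode sequences, 3.41% to 7.84% of the smaller library of the pair. Because reads were counted at the 3′ end, differences are given between samples for a gene, and shares of a summed level are shares of UMIs.

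Fxr1, the targeted gene and an RNA-binding protein, stood over whole libraries at 80.4 and 59.4 CPM in siCont-LNA and at 116 and 80.0 CPM in siFXR1-LNA. In macrophages it stood at 70.3 and 61.8 CPM against 75.0 and 69.3 CPM, and in tumor or mesothelial cells at 117 and 137 CPM against 144 and 141 CPM. In none of these 3 settings was it lower in both siFXR1-LNA libraries than in both siCont-LNA libraries. Every direction below is therefore one between the libraries labelled siFXR1-LNA and those labelled siCont-LNA.

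Cell types were named from marker genes after clustering without the listed genes. The macrophage cluster held 5762, 2830, 4173 and 3996 cells, the siCont-LNA libraries given ahead of the siFXR1-LNA libraries here and below, and all 8 macrophage markers had UMIs in every library. It joins a cluster with all 8 of these markers raised over other clusters and one, led by Cacna1d, with 4 of 8 raised. Tumor or mesothelial cells numbered 849, 124, 1480 and 417, with all 9 of their markers present and Wt1 the most abundant. The name rests on 4 of the 9 being raised over other clusters, beside 2 of 6 fibroblast markers. Presence alone does not mark the class, since all 9 also had UMIs in B cells, granulocytes and macrophages of every library. B cells numbered 3627, 2515, 883 and 652, T cells 2402, 2223, 882 and 1195, and granulocytes 451, 932, 5516 and 4888. The T cell and granulocyte classes were made up of different clusters in the groups. In a finer clustering the largest T cell cluster held 1662 and 1777 siCont-LNA cells but 8 and 47 siFXR1-LNA cells, and another held 5 and 9 against 606 and 498. The T cell class also took in a finer cluster without a name, led by Themis, with 279, 280, 154 and 205 cells. It took in as well an unnamed one in which all 7 B cell markers were raised, with 30, 6, 2 and 3 cells. At resolution 0.3 a granulocyte cluster led by Ngp held 15 and 42 siCont-LNA cells but 5431 and 4568 siFXR1-LNA cells, and one led by Cxcr2 held 430 and 860 against 22 and 230. The part of this make-up in the group differences of these classes was not tested. A large cluster without a name held 70 and 53 barcodes in siCont-LNA but 41155 and 5396 in siFXR1-LNA, and a hemoglobin-dominated cluster 22114 and 15795 against 23 and 62. Both clusters sit almost entirely in 1 group, so no change between groups was tested in them.

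Summed over the 37 genes, the level was higher in both siFXR1-LNA libraries than in both siCont-LNA libraries in every named type. Over whole libraries the sum was 7033 and 6796 CPM in siCont-LNA and 16623 and 16361 CPM in siFXR1-LNA, 2.39 times higher on the means. In macrophages it was 8084 ± 652 CPM (SD, n = 2) in siCont-LNA and 17291 ± 803 CPM (SD, n = 2) in siFXR1-LNA. The groups stood far apart against their spread.

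Tumor or mesothelial cells went from 5163 and 5931 CPM to 11272 and 11265 CPM. B cells stood at 5117 and 3905 CPM against 11827 and 9314 CPM, and T cells at 6162 and 4749 CPM against 12506 and 9984 CPM. Granulocytes had the highest sum of the named siCont-LNA types, 10510 and 11019 CPM, and the smallest ratio of the tested types, 1.49, with 16102 and 16066 CPM in siFXR1-LNA. The fold between groups thus ran from 1.49 in granulocytes to 2.34 in B cells among the 8 types tested.

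**Figure D1:**
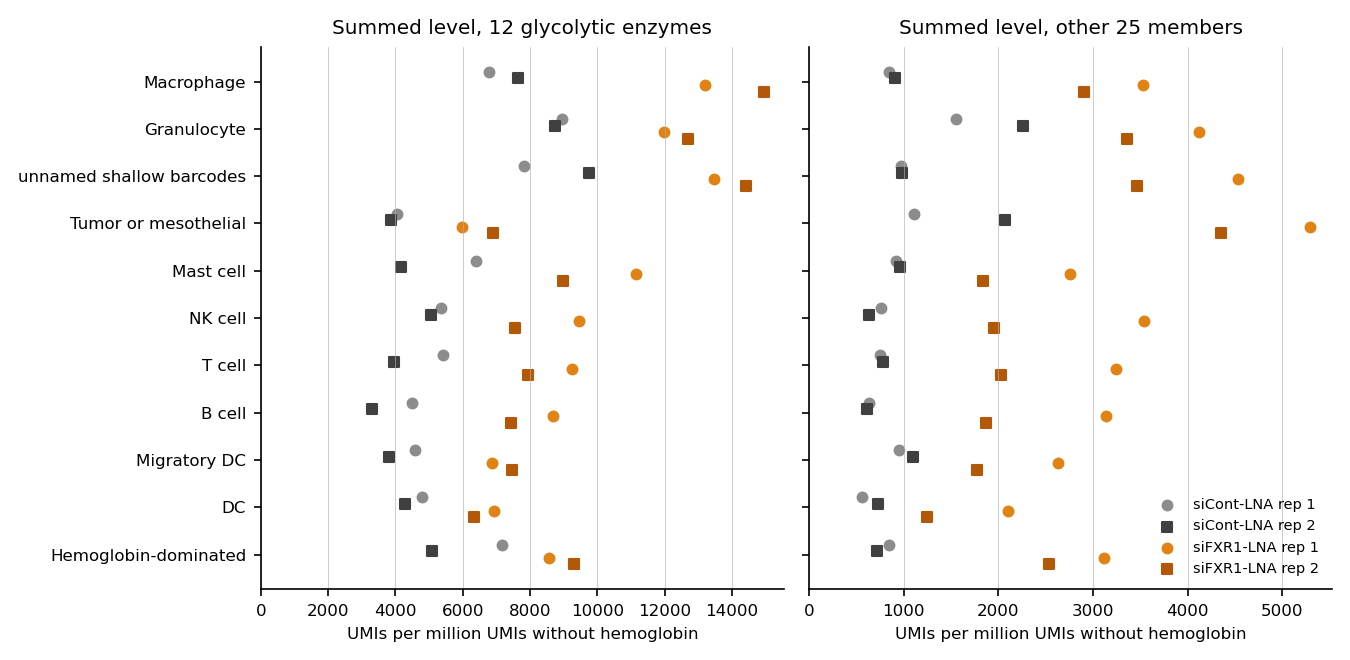
Summed level in UMIs per 1000000 UMIs without hemoglobin (x axis) of the 12 glycolytic enzymes (left) and of the other 25 listed genes (right) in each cell type, with a point for each library (gray, siCont-LNA; orange, siFXR1-LNA). In macrophages the other 25 genes lie at 843 and 905 CPM in siCont-LNA and at 3530 and 2899 CPM in siFXR1-LNA, and the siFXR1-LNA points lie to the right in each type drawn; the unnamed cluster is drawn as unnamed shallow barcodes, and platelets are not drawn.

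In macrophages the 12 glycolytic enzymes gave 88.9% and 89.4% of the summed UMIs in siCont-LNA and 78.9% and 83.8% in siFXR1-LNA, and Gapdh alone between 32.5% and 38.0%. The other 25 genes had a larger ratio than the sum: 843 and 905 CPM in siCont-LNA macrophages against 3530 and 2899 CPM in siFXR1-LNA, a ratio of 3.68. In tumor or mesothelial cells the same 25 genes summed to 1107 and 2065 CPM against 5286 and 4354 CPM, a ratio of 3.04. Those values have no test of their own, since the list was chosen with earlier results known; single genes were tested in a fit over all genes.

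In the main fit macrophages had the most listed genes called of the 8 types tested, but not in each fit with a library left out. By the quasi-likelihood test of edgeR, adjusted by Benjamini-Hochberg over 14796 genes, 32 of the 37 genes were higher in siFXR1-LNA at an adjusted p under 0.05, where 9.64% of all genes tested were called higher. Their median log2 fold change was 1.59, against -0.03 over all genes tested. The 5 genes that did not pass were Car9, Bhlhe40, Pfkfb4, Pfkp and Eno1. By role, the calls took 3 of 4 pH and mitochondrial genes, 6 of 7 oxygen-sensing genes, 6 of 6 secreted and surface genes, 4 of 5 transport genes, 10 of 12 glycolytic enzymes and 3 of 3 glycogen genes.

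Leaving out a library lowered the count of calls among the listed genes and among all genes alike. The count at an unadjusted p that follows is not read, for want of an all-gene share at that threshold. Without siFXR1-LNA replicate 1 no listed gene passed by edgeR and 1 of all 15643 genes did, while the median log2 fold change of the 37 was 1.60 and 33 of them had an unadjusted p under 0.05. Without siFXR1-LNA replicate 2 the count was 20, beside 608 of all 15306 genes, and the highest count on leaving out a library was 22, beside 1123 of 15089. The macrophage cluster was also not the same mixture in each group: in a finer clustering, a cluster led by Saa3 and Nos2 held 0 and 1 siCont-LNA cells but 2535 and 2205 siFXR1-LNA cells, and a cluster led by Nr1h3 held 1046 and 712 against 1 and 1. The class also took in 2 finer clusters that the marker rule left without a name, one led by Mgl2 and Cd209a with 776, 437, 177 and 235 cells, and one led by Cd209a and Mgl2 in which all 7 B cell markers were raised, with 574, 242, 27 and 49 cells. Without these 2 clusters, an alternative added after seeing the data, 31 of the 37 genes were higher by edgeR, beside 2878 of all 14286 genes called in either direction; P4ha1 was the gene that no longer passed. The cluster led by Alox15 and Prg4 was the largest present in all libraries, with 3121, 1281, 1409 and 1461 cells. Within it 0 of the 37 genes passed by edgeR and 0 of all 12729 genes tested, and the smallest adjusted p of the 37 was 0.28. By the same test 22 of the 37 had an unadjusted p under 0.05, not read for want of an all-gene share at that threshold. This restriction was chosen after seeing the data.

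In that Alox15 and Prg4 cluster the summed level stood at 7717 and 9271 CPM against 12490 and 10962 CPM, a ratio of 1.38 where the whole class had 2.14. The other finer clusters of the class with at least 10 cells in each library had larger ratios. The cluster led by Mgl2 and Cd209a had 1.53, and that led by Cd209a and Mgl2 had 1.46. A cluster led by Pclaf and Birc5, with 245, 157, 24 and 45 cells, had 1.99. In the Alox15 and Prg4 cluster Vegfa stood at 9.25 and 6.34 CPM in siCont-LNA and at 180 and 81.2 CPM in siFXR1-LNA. Ldha stood at 620 and 868 CPM against 848 and 869 CPM, so its groups overlapped. The Saa3 and Nos2 cluster of siFXR1-LNA had Gapdh at 6062 and 7853 CPM and Slc2a1 at 237 and 261 CPM. Against this, the Alox15 and Prg4 cells of the same libraries had Gapdh at 3874 and 3723 CPM and Slc2a1 at 66.3 and 49.7 CPM. The 12 glycolytic enzymes summed to 14576 and 18139 CPM in the Saa3 and Nos2 cluster of siFXR1-LNA. In the same libraries they summed to 14469 and 13960 CPM in the Pclaf and Birc5 cluster and to 9858 and 9401 CPM in the Alox15 and Prg4 cluster.

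Among genes for pH and mitochondria, Bnip3, a receptor that marks mitochondria for removal, was the clearest in macrophages. It stood at 23.9 and 38.2 CPM in siCont-LNA and at 459 and 448 CPM in siFXR1-LNA, with a log2 fold change of 4.10 ± 0.28 (SE) and an adjusted p of 0.00648 by edgeR's quasi-likelihood test. Ndufa4l2, a mitochondrial protein that lowers respiration, was low in both groups, at 1.57 and 1.41 CPM against 39.4 and 18.9 CPM (log2 fold change 4.52 ± 0.45). The groups did not overlap for either gene. In macrophages 32 of the 35 listed genes with a mean of at least 10 CPM lay higher without overlap, beside 19.4% of all such genes. Car9, a surface enzyme that turns carbon dioxide into acid and bicarbonate outside the cell, stood at 6.10 and 7.56 CPM against 24.3 and 9.73 CPM and did not pass (log2 fold change 1.55 ± 0.47, edgeR adjusted p = 0.0811).

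Of the oxygen-sensing genes, Egln3, a prolyl hydroxylase that marks HIF alpha for destruction, stood at 9.35 and 9.01 CPM in siCont-LNA macrophages and at 215 and 191 CPM in siFXR1-LNA. Its log2 fold change of 4.71 ± 0.13 had the smallest adjusted p of the 37 genes in macrophages, 0.00214 by edgeR. Mxi1, which opposes MYC, rose with a log2 fold change of 2.37 ± 0.17. Egln1, Ankrd37, Kdm3a and Ddit4 passed as well, with log2 fold changes from 0.91 for Kdm3a to 2.27 for Ankrd37, while Bhlhe40 gave 0.29 and did not pass.

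Vegfa, the growth factor for blood vessels, went from 8.88 and 5.65 CPM to 190 and 127 CPM in macrophages (log2 fold change 4.68 ± 0.33, edgeR adjusted p = 0.00648). Ndrg1, a stress-induced cytoplasmic protein, went from 12.1 and 9.47 CPM to 298 and 158 CPM (4.64 ± 0.39). Vldlr, a lipoprotein receptor, went from 1.18 and 0.455 CPM to 35.1 and 11.0 CPM (5.01 ± 0.79). For these 3 genes the lower siFXR1-LNA library was far above the higher siCont-LNA library, and siFXR1-LNA replicate 1 was always the higher of its pair. The collagen hydroxylase subunits P4ha1 and P4ha2 passed at log2 fold changes of 0.73 and 1.64.

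Of the 5 fuel transport genes 4 were higher. Slc2a1, the glucose carrier GLUT1, stood at 22.7 and 29.1 CPM in siCont-LNA macrophages and at 189 and 186 CPM in siFXR1-LNA (log2 fold change 3.10 ± 0.17, edgeR adjusted p = 0.00572). Pfkfb3, which makes the sugar phosphate that drives phosphofructokinase, stood at 53.4 and 42.6 CPM against 256 and 237 CPM (2.60 ± 0.15). Here the replicates of each group lay close together and the groups well apart. Pfkfb4, its relative, stood at 32.8 and 39.1 CPM against 22.2 and 26.7 CPM, the only negative log2 fold change among the 37 in macrophages (-0.31, edgeR adjusted p = 0.213). Slc16a3, the lactate exporter, and Pdk1, the kinase that shuts pyruvate out of mitochondria, passed at 1.28 and 1.33.

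Of the 12 glycolytic enzymes 10 were higher. Gapdh stood at 2898 and 3052 CPM in siCont-LNA macrophages and at 5434 and 6368 CPM in siFXR1-LNA (log2 fold change 1.23 ± 0.20, edgeR adjusted p = 0.0205). Pgk1, which makes ATP in glycolysis, stood at 165 and 228 CPM against 706 and 720 CPM (2.10 ± 0.21), the largest change of the 12. Ldha, which turns pyruvate into lactate, stood at 641 and 832 CPM against 1247 and 1427 CPM (1.10 ± 0.20). None of these 3 overlapped between groups. The other called enzymes ran from 0.76 for Pfkl to 1.59 for Hk2, while Eno1 gave 0.64 (edgeR adjusted p = 0.0619) and Pfkp 0.17. Eno1, Gapdh, Pgk1 and Ldha have near-identical copies in the mouse genome, so their counts are less certain.

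In the glycogen group, Gys1, glycogen synthase, stood at 7.85 and 12.9 CPM in siCont-LNA macrophages and at 80.2 and 63.9 CPM in siFXR1-LNA (log2 fold change 3.04 ± 0.29). Gbe1, the branching enzyme, stood at 50.8 and 66.9 CPM against 252 and 190 CPM (2.15 ± 0.23). Their groups did not overlap, and Stbd1, which tethers glycogen to membranes, passed as well.

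Markers of other cells moved in the macrophage class too, and their part in the result was not tested. All 7 granulocyte markers had UMIs in every library, and their sum stood at 112 and 562 CPM in siCont-LNA macrophages and at 1202 and 1342 CPM in siFXR1-LNA, led by S100a8 or S100a9. The 5 platelet markers summed to 694 and 1281 CPM against 2218 and 2172 CPM, nearly all of it Pf4. The macrophage markers themselves summed to 36370 and 24128 CPM against 15052 and 26077 CPM. The 9 tumor or mesothelial markers summed to 352 and 87.1 CPM against 310 and 162 CPM, so they overlapped between groups.

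**Figure D2:**
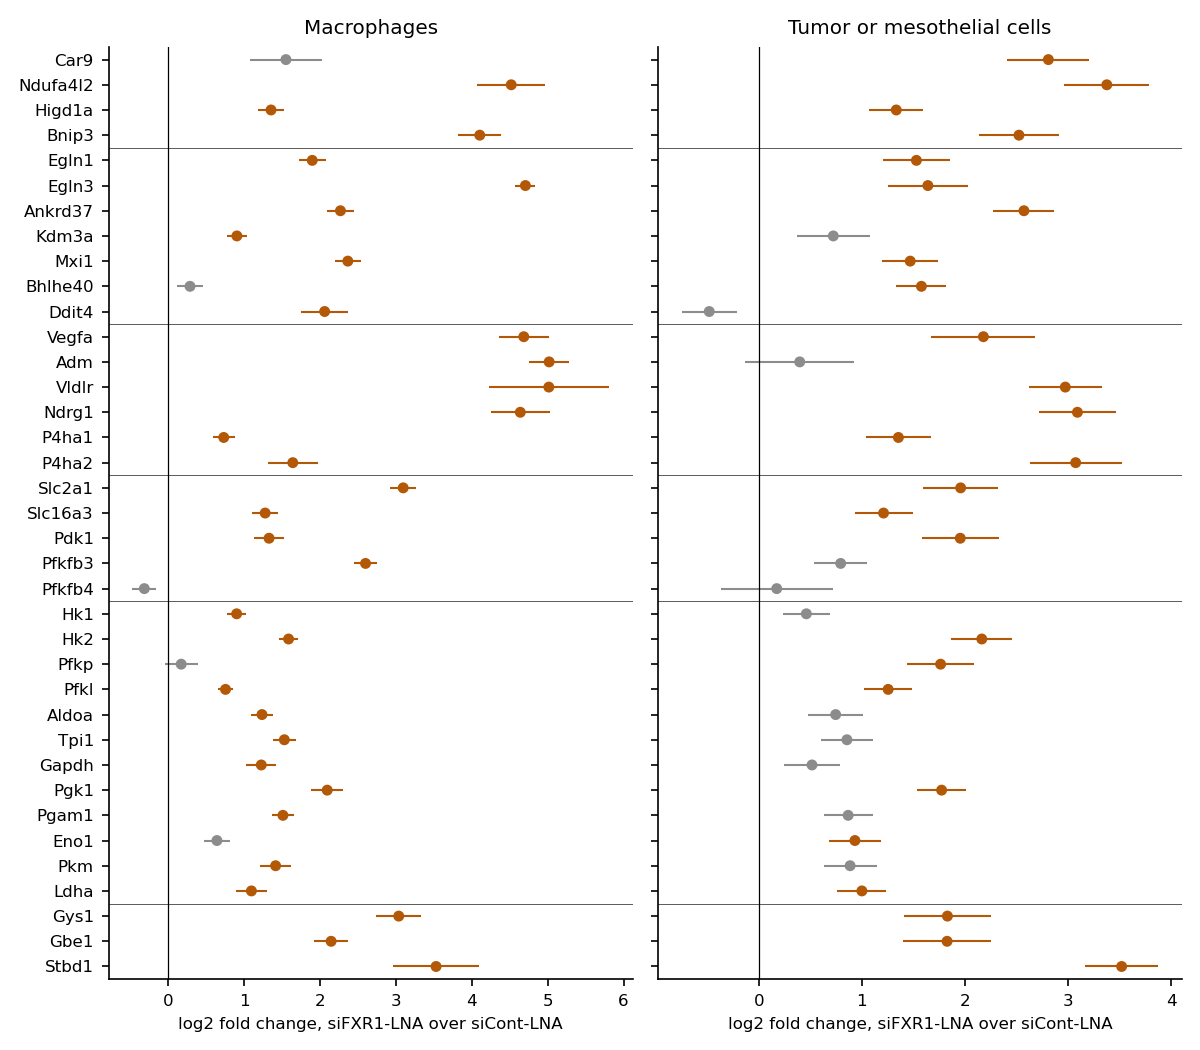
Log2 fold change of each of the 37 genes, siFXR1-LNA over siCont-LNA (x axis), in macrophages and in tumor or mesothelial cells, with bars for the standard error from edgeR, orange points for an adjusted p under 0.05, gray points otherwise, and lines between roles. Orange points number 32 in macrophages and 26 in tumor or mesothelial cells, all to the right of 0.

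In tumor or mesothelial cells, 26 of the 37 genes were higher in siFXR1-LNA (edgeR's quasi-likelihood test, Benjamini-Hochberg adjustment over 13114 genes), where 2.97% of all genes tested were called higher. The median log2 fold change was 1.53 against -0.01 over all genes. By role, 4 of 4 pH and mitochondrial genes, 5 of 7 oxygen-sensing, 5 of 6 secreted and surface, 3 of 5 transport, 6 of 12 glycolytic and 3 of 3 glycogen genes passed. Of the 37 genes, 22 passed in both macrophages and tumor or mesothelial cells, where 1.55% of all genes tested in both types were called higher in both. Leaving out a library lowered or raised the count of 26, as given below. Without siCont-LNA replicate 1, with siCont-LNA replicate 2 then the lone control at 124 cells, the median log2 fold change was 1.25.

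Car9 passed here. It stood at 7.86 and 13.7 CPM in siCont-LNA and at 77.9 and 44.7 CPM in siFXR1-LNA, a log2 fold change of 2.81 ± 0.40 with an edgeR adjusted p of 0.00289. Ndufa4l2 stood at 4.49 and 12.6 CPM against 57.5 and 71.3 CPM (3.38 ± 0.41), and Bnip3 at 20.2 and 50.5 CPM against 188 and 153 CPM (2.52 ± 0.39). All 3 were apart between groups, with siCont-LNA replicate 2 above replicate 1 each time. In this class 33 of the 35 listed genes with a mean of at least 10 CPM lay higher without overlap, beside 23.2% of all such genes. Stbd1 passed at 4.68 and 2.10 CPM against 46.2 and 41.2 CPM (edgeR adjusted p = 0.000602). Since 25 and 2 UMIs lie behind the siCont-LNA values, the size of its change is not read.

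Vegfa stood at 87.9 and 342 CPM in siCont-LNA tumor or mesothelial cells and at 825 and 968 CPM in siFXR1-LNA (log2 fold change 2.18 ± 0.51, edgeR adjusted p = 0.0259). The siCont-LNA libraries were thus far apart from each other for this gene. Ndrg1 stood at 58.6 and 105 CPM against 778 and 481 CPM (3.09 ± 0.38), Vldlr at 16.7 and 35.8 CPM against 187 and 156 CPM (2.97 ± 0.36). P4ha2, which shapes collagen, stood at 7.30 and 14.7 CPM against 96.5 and 48.6 CPM (3.07 ± 0.45), and Ankrd37 at 8.42 in each siCont-LNA library against 42 and 52.4 CPM (2.57 ± 0.30). None of these overlapped. The siCont-LNA replicate 2 values rest on 124 cells, so the size of the change of Ankrd37, the lowest there, is uncertain.

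For glucose use, Slc2a1 stood at 19.8 and 47.3 CPM in siCont-LNA and at 109 and 111 CPM in siFXR1-LNA tumor or mesothelial cells (log2 fold change 1.96 ± 0.36). Hk2, the inducible hexokinase, stood at 30.9 and 51.5 CPM against 145 and 185 CPM (2.16 ± 0.30), and Pgk1 at 68.3 and 70.5 CPM against 225 and 219 CPM (1.77 ± 0.23). Those groups did not overlap, and Ldha passed as well at 261 and 269 CPM against 479 and 518 CPM (1.00 ± 0.24, edgeR adjusted p = 0.0288). Gapdh did not pass at 1715 and 1508 CPM against 2024 and 2315 CPM (0.52 ± 0.28, edgeR adjusted p = 0.291). Ddit4, an inhibitor of the mTORC1 kinase, was the only gene of the 37 with a negative log2 fold change here, at 78.4 and 119 CPM against 68.1 and 61.4 CPM (-0.48, edgeR adjusted p = 0.310).

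The markers of the tumor or mesothelial class itself summed to 2698 and 2751 CPM in siCont-LNA and to 1894 and 1844 CPM in siFXR1-LNA, lower in both, while granulocyte markers summed to 105 and 175 CPM against 1303 and 878 CPM. Ly6g was at 0 in both siCont-LNA libraries and Mmp8 in replicate 2. Macrophage markers, all 8 present, summed to 2539 and 786 CPM against 1398 and 1724 CPM. Mitochondrial genes took 3.10% and 3.32% of UMIs against 4.18% and 5.19%. The part of these shifts in the result was not tested.

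A gene that passed in 1 type and not in the other is not thereby shown to differ, so the difference of the group effects was tested in a joint fit with library as a block. Between tumor or mesothelial cells and macrophages, 4 of the 37 genes differed by edgeR (0.888% of all genes tested, in either direction), all with the lower group effect in tumor or mesothelial cells: Adm by -4.68, Egln3 by -2.95, Ddit4 by -2.61 and Pfkfb3 by -1.79 on the log2 scale. Adm, a vessel-dilating peptide, lies below the level at which genes were otherwise named in macrophages, with 11 and 12 UMIs in the siCont-LNA libraries. Car9, with a difference of 1.22 toward tumor or mesothelial cells, did not pass (edgeR adjusted p = 0.186).

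Between granulocytes and macrophages 16 genes differed, 14 with the lower effect in granulocytes and 2, Car9 and Bhlhe40, with the higher (5.32% of all genes tested). For Car9 the siCont-LNA granulocytes held 2 and 1 UMIs, so the size of that difference is not read. Pfkfb4, among the 14, was negative in both types, -0.31 in macrophages and -1.46 in granulocytes. Egln3 had the widest gap, -3.92, followed by Slc2a1 at -2.84. In granulocytes Slc2a1 stood at 87.1 and 200 CPM in siCont-LNA and at 135 and 162 CPM in siFXR1-LNA, overlapping between groups, while in macrophages the groups lay apart. With B cells as the reference, 12 genes differed in macrophages (3.23% of all genes tested), 4 in granulocytes (2.53%), and 0 in T cells (0.162%, with 5 of the 37 at an unadjusted p under 0.05) or in tumor or mesothelial cells (0%, with 10 at an unadjusted p under 0.05), all by edgeR in comparisons added after seeing the data. The counts at an unadjusted p are not read, for want of an all-gene share at that threshold.

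**Figure D3:**
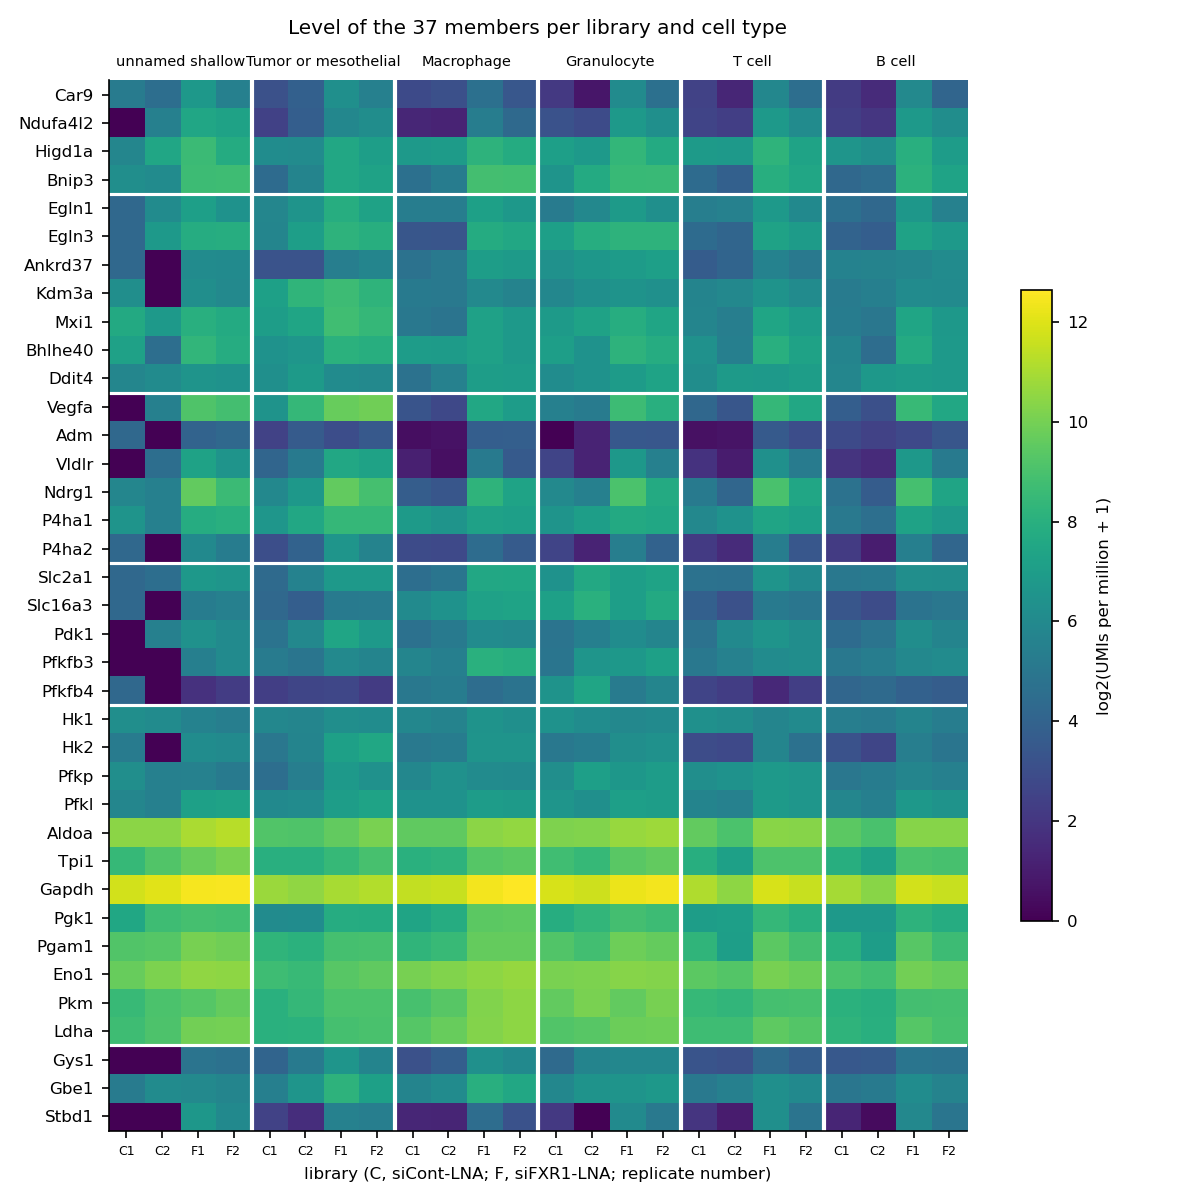
Level of the 37 genes (grouped by role) in each library (C1 and C2, siCont-LNA; F1 and F2, siFXR1-LNA) of 6 classes, on a color scale of log2(CPM + 1). The F columns are lighter than the C columns for Vegfa in each class drawn (8.88 and 5.65 against 190 and 127 CPM in macrophages), while Pfkfb4 is not lighter in macrophages.

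Across the 8 types tested, 36 of the 37 genes were higher in siFXR1-LNA in at least 1, and Pfkfb4 in none, where 10.4% of all genes tested in any of these types were higher in at least 1. Vegfa passed in all 8, and Ndufa4l2 in the 7 in which it could be tested. Some of these calls rest on very few siCont-LNA UMIs, are of genes that the filter on low counts kept through siFXR1-LNA, and are not read: Vegfa had 2 and 1 UMIs in mast cells, Ndufa4l2 0 and 1 in dendritic cells and 2 and 1 in migratory dendritic cells, and Vldlr 2 and 0 in migratory dendritic cells. Vegfa had 0.0352 and 0.0158 UMIs per siCont-LNA dendritic cell (455 and 190 cells) and 0.0283 and 0.0370 per migratory dendritic cell (389 and 162 cells). These calls rest on few UMIs and are not read either. In the types whose Vegfa call is read, it passed with each library left out in turn in T cells and granulocytes. It did not pass each time in B cells, macrophages or tumor or mesothelial cells. The counts in the other types were 13 of 35 genes in migratory dendritic cells (1.57% of all genes called higher), 6 of 37 in granulocytes (0.531%), 5 of 37 in T cells (0.199%), 3 of 37 in B cells (0.0966%), 3 of 36 in dendritic cells (0.416%) and 1 of 16 in mast cells (0.727%), all by edgeR. Leaving out a library gave 2 to 12, 5 to 11, 4 to 15, 0 to 26, 1 to 14 and 0 to 3 in the same order, the lowest in each type without siFXR1-LNA replicate 1, and in B cells also without siFXR1-LNA replicate 2 and in mast cells also without siCont-LNA replicate 1. In these fits with a library left out, mast cells and granulocytes also had a lower call, counted with the others. With the replicate number as a block, the counts rose in each of these types but mast cells, as given below. The median log2 fold change of the tested genes ran from 0.85 in granulocytes to 1.59 in macrophages, beside medians of all genes between -0.03 and 0.01.

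In B cells the called genes were Ndufa4l2, Egln3 and Vegfa. Vegfa stood at 12.5 and 7.59 CPM in siCont-LNA B cells and at 362 and 193 CPM in siFXR1-LNA (log2 fold change 4.78 ± 0.46, edgeR adjusted p = 0.0465), Ndufa4l2 at 4.03 and 3.06 CPM against 109 and 71.8 CPM (4.65 ± 0.34). In T cells Bnip3 and Vldlr passed besides, Vldlr on 11 and 5 UMIs in siCont-LNA, and Vegfa stood at 17.4 and 9.28 CPM against 337 and 193 CPM. Granulocyte markers stood at 149 and 1030 CPM in siCont-LNA B cells against 2289 and 2754 CPM, and in T cells at 82.5 and 554 CPM against 709 and 736 CPM, without overlap in either type; their part in the result was not tested. In granulocytes Ndufa4l2, Vegfa and Ndrg1 passed, and so did Car9, Vldlr and Stbd1, which had 2 and 1, 3 and 2, and 2 and 0 UMIs in the siCont-LNA libraries and passed the filter on low counts through siFXR1-LNA, so no fold is given for these 3. Ndufa4l2 had UMIs in 5 of 451 and 9 of 932 siCont-LNA granulocytes, so the size of its change is not read either. Car9 held 718 and 278 UMIs in the siFXR1-LNA granulocytes (67.5 and 24.2 CPM). No group overlapped for these genes. Of all genes with a mean of at least 10 CPM, 25.1% in B cells lay higher without overlap, 19.3% in T cells and 19.2% in granulocytes. Vegfa in siFXR1-LNA B and T cells read at more CPM than in macrophages of the same libraries.

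Counted per barcode in place of CPM, Ndufa4l2 and Car9 in lymphocytes and granulocytes lay near the unnamed barcodes. In siFXR1-LNA replicate 1 and 2, Ndufa4l2 had 0.227 and 0.187 UMIs per B cell, 0.221 and 0.164 per T cell, 0.214 and 0.181 per granulocyte, 0.218 and 0.163 per macrophage and 0.227 and 0.200 per barcode of the unnamed cluster. Tumor or mesothelial cells stood above all of these at 0.337 and 0.535. Car9 had 0.128 and 0.0429 UMIs per B cell and 0.133 and 0.0578 per unnamed barcode, against 0.457 and 0.336 in tumor or mesothelial cells. The siCont-LNA B cells held 0.00800 and 0.00517 Car9 UMIs each.

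Of the 37 genes, 24 lay within 0.8 to 1.25 times the B cell value per barcode in T cells in both siFXR1-LNA libraries, and 21 in the unnamed cluster, whose barcodes held 0.61 and 0.50 times the UMIs of a B cell. In granulocytes it was 8, and 31 of the 37 stood above the B cell value in both libraries. At least 2-fold above B cells in both libraries were 29 genes in macrophages and 29 in tumor or mesothelial cells, 12 in dendritic cells, 2 in granulocytes and 1 in T cells, where total UMIs were 2.66 and 3.31 times those of B cells in macrophages and 2.82 and 2.88 times in tumor or mesothelial cells. Per barcode, Car9, Ndufa4l2, Vegfa, Ndrg1, Vldlr, Stbd1 and P4ha2 stood in B cells, T cells and granulocytes at 0.46 to 1.18 times their unnamed-cluster value. These genes were picked as higher in siFXR1-LNA shallow barcodes, most of which are unnamed, so the choice favors such values. Those lower there (Pfkfb4, Pfkfb3, Gbe1, Slc16a3 and Gys1) stood at 1.14 to 9.11 and 1.39 to 6.68 times it in B cells of siFXR1-LNA replicates 1 and 2. In granulocytes of replicate 1 they stood at 2.30 to 21.9 times it. No expression by B cells, T cells or granulocytes is read from these values, and the part of free RNA in them was not tested.

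Macrophages split by gene. Ndufa4l2, Vldlr at 0.194 and 0.0946 UMIs per cell, and Stbd1 at 0.122 and 0.0698 were at or below the unnamed barcodes (0.195 and 0.119 for Vldlr, 0.130 and 0.0827 for Stbd1), so no expression by macrophages is read from these 3 calls. Slc2a1 had 1.04 and 1.61 UMIs per macrophage against 0.134 and 0.126 per unnamed barcode and 0.155 and 0.186 per B cell. Pfkfb3 had 1.42 and 2.04 against 0.0539 and 0.0862, Bnip3 2.54 and 3.86 against 0.520 and 0.543, and Egln3 1.19 and 1.64 against 0.289 and 0.306. Vegfa, at 1.05 and 1.10 per macrophage against 0.729 and 0.60, exceeded the unnamed barcodes by less.

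In tumor or mesothelial cells Vegfa had 4.83 and 7.27 UMIs per cell and Ndrg1 4.56 and 3.61, against 0.989 and 0.516 for Ndrg1 in unnamed barcodes. These cells held the highest count per barcode of Car9, Ndufa4l2, Vegfa, Ndrg1 and Vldlr among the 4 classes compared here, B cells, macrophages, tumor or mesothelial cells and unnamed barcodes. Slc2a1, Pfkfb3 and Bnip3 were highest in macrophages among those 4.

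**Figure D4:**
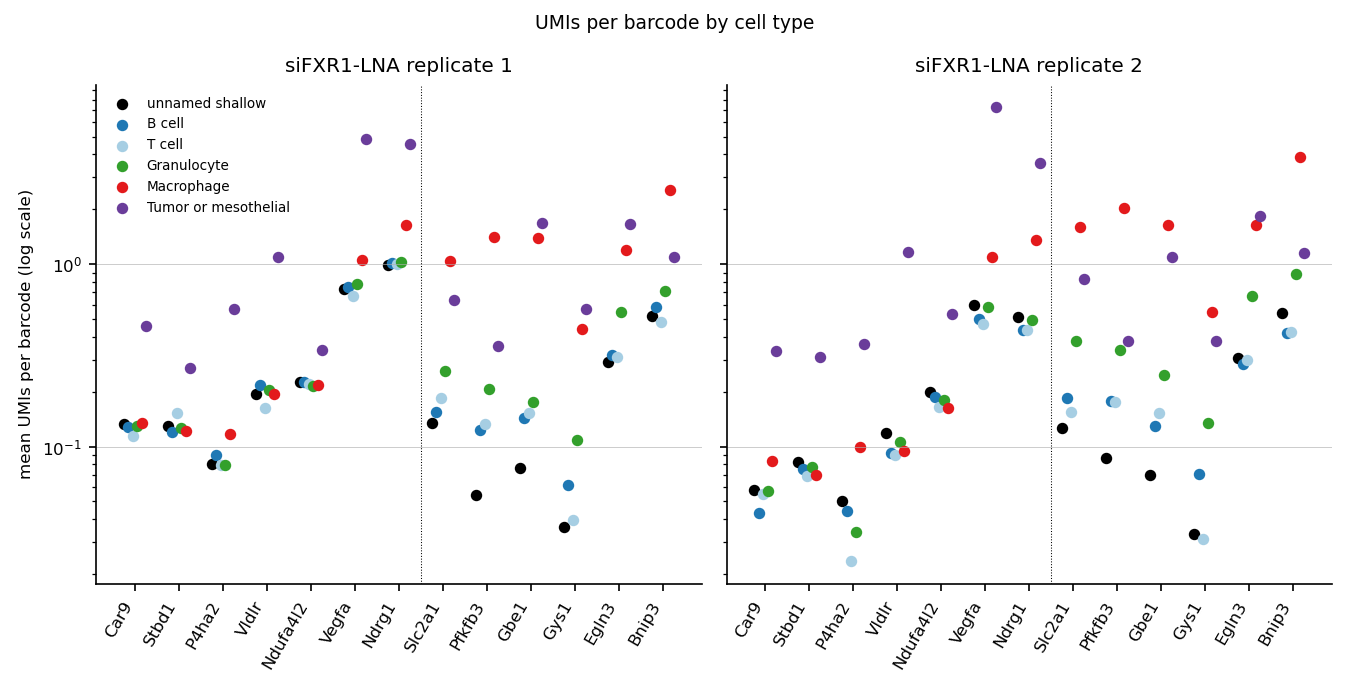
Mean UMIs per barcode (log axis) of 13 listed genes in the siFXR1-LNA libraries, with a point for each cell type, the 7 genes higher in shallow barcodes left of the dotted line and 6 others right of it. For Car9 and Ndufa4l2 the points of B cells, T cells, granulocytes and unnamed barcodes lie near each other, and that of tumor or mesothelial cells lies higher (Car9 0.457 and 0.336); Slc2a1 is highest in macrophages (1.04 and 1.61).

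Among the same classes of siFXR1-LNA, the share of cells with a UMI was also highest in tumor or mesothelial cells for Car9 and in macrophages for Slc2a1. Car9 was seen in 29.8% of tumor or mesothelial cells of siFXR1-LNA replicate 1 (95% Wilson interval 27.5 to 32.2) and in 18.5% (15 to 22.5) of replicate 2. B cells had 12.5% (10.4 to 14.8) and 3.99% (2.74 to 5.78), and macrophages 12.2% (11.2 to 13.2) and 7.71% (6.92 to 8.58). The median depth was 2021 and 2291 UMIs in those B cells, 5125 and 8269 in macrophages and 5235.5 and 6683 in tumor or mesothelial cells, so macrophages did not exceed B cells in replicate 1 at a greater depth. In siCont-LNA, 0.80% and 0.477% of B cells had a Car9 UMI.

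Slc2a1 was seen in 48.7% (47.2 to 50.2) and 55.3% (53.7 to 56.8) of siFXR1-LNA macrophages, against 13.8% (11.7 to 16.2) and 15.6% (13.1 to 18.6) of B cells, and in 9.61% and 17.5% of siCont-LNA macrophages, whose median depths of 4975 and 8154 UMIs were close to those of siFXR1-LNA. These shares of macrophages therefore stood above both the B cell share and the siCont-LNA share. The intervals cover counting error only.

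Barcodes with 500 to under 800 genes were also looked at on their own. They numbered 6520 and 1388 in siCont-LNA and 37525 and 3636 in siFXR1-LNA. In siFXR1-LNA 96.8% and 80.0% of them belonged to the unnamed cluster. In siCont-LNA replicate 1 77.7% were hemoglobin-dominated, and in replicate 2 33.8% were granulocytes and 23.5% B cells. They are thus different populations in the 2 groups, and the gene-number class and its cell make-up cannot be told apart.

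Their summed level of the 37 genes was 7750 and 7329 CPM in siCont-LNA and 17741 and 16024 CPM in siFXR1-LNA. By edgeR 0 of the 37 genes passed (0% of all genes tested were called), while DESeq2 called 19, beside 787 of all 12647 genes. At an unadjusted p under 0.05 by edgeR stood 25 of the 37, not read for want of an all-gene share at that threshold. With the replicate number as a block listed genes did pass, as given below. The median log2 fold change was 1.49 against -0.06 over all genes. Ndufa4l2 stood at 14.1 and 7.85 CPM against 178 and 144 CPM (log2 fold change 4.16, edgeR adjusted p = 0.192), and Car9 at 9.95 and 4.58 CPM against 101 and 37.1 CPM. Slc2a1, at 18.4 and 104 CPM against 104 and 84.3 CPM, overlapped between groups.

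As a description without a test, 26 of the 36 listed genes with a mean of at least 10 CPM lay higher in both siFXR1-LNA libraries than in both siCont-LNA libraries in this class, beside 14.7% of all such genes. In the unnamed cluster it was 31 of 36 (19.9% of all) and over whole libraries 34 of 36 (16.6%). Whole-library Vegfa stood at 22.8 and 19.9 CPM against 476 and 234 CPM, Ndufa4l2 at 5.46 and 5.35 CPM against 125 and 51.4 CPM, and Gapdh at 2729 and 2380 CPM against 5070 and 5604 CPM.

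Within a library, the shallow barcodes were also set against those with 800 to 4800 genes, with library as a block. In siFXR1-LNA, 7 of the 37 genes were higher in shallow barcodes by edgeR and 5 lower, where 31% of all genes tested were called in either direction and the median of all genes was -0.14. The higher ones were Ndufa4l2 (log2 fold change 1.74), Stbd1, Car9 (1.25), Vldlr, P4ha2, Ndrg1 and Vegfa (0.89). The lower ones were Pfkfb4 (-1.65), Pfkfb3 (-1.31), Gbe1, Slc16a3 and Gys1. Against an all-gene share of 31%, a count of 12 of 37 does not stand apart. With no library block none of the 37 genes passed in either group or for the difference between groups, and no other gene did.

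In siCont-LNA 7 genes were higher, led by Ndufa4l2 (2.25) and Egln3 (2.02), where 15.3% of all genes were called, so that 7 of 37 does not stand apart either. Of the 37 genes, 2 differed in this contrast between the groups by edgeR, Egln3 by -1.68 and Pfkfb4 by -1.71, beside 2.97% of all genes. In siFXR1-LNA replicate 1 Ndufa4l2 read 181, 180 and 169 CPM in the 3 steps of gene number from 500 to under 800. In siCont-LNA it never exceeded 27.8 CPM in any step.

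**Figure D5:**
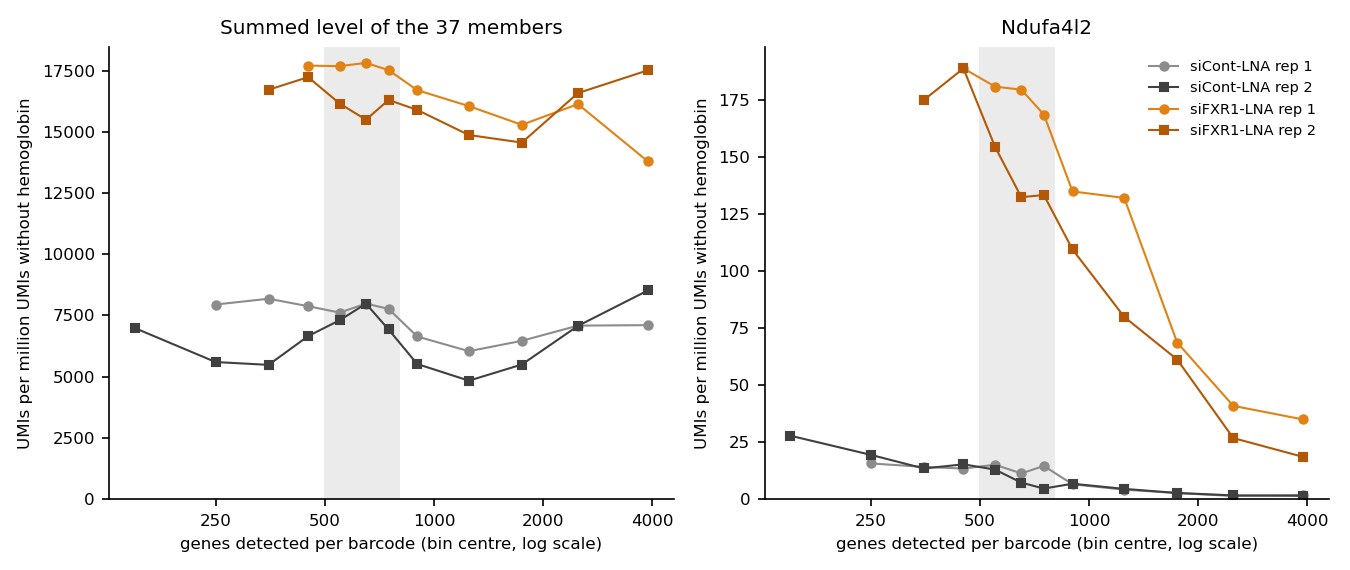
Summed level of the 37 genes (left) and level of Ndufa4l2 (right) in CPM against the number of genes per barcode (centres of bins with at least 100 barcodes, log axis), with a line for each library and the range of 500 to under 800 genes shaded. In siFXR1-LNA replicate 1 Ndufa4l2 reads 189 CPM at 400 to under 500 genes and 34.9 CPM at 3000 to 4800 genes, and the summed level lies higher in the siFXR1-LNA libraries in each bin drawn.

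The unnamed barcodes carried other cells' markers. In siFXR1-LNA all 9 tumor or mesothelial markers had UMIs, summing to 1428 and 1411 CPM, 75.4% and 76.5% of the level in the tumor or mesothelial class, led by Upk3b and Krt18. All 8 macrophage markers summed to 2162 and 6578 CPM, 14.4% and 25.2% of the level in macrophages, with Lyz2 highest. The 7 granulocyte markers summed to 1135 and 1817 CPM, 3.68% and 3.92% of the level in granulocytes. B cells of the same libraries held tumor or mesothelial markers at 868 and 577 CPM, but siCont-LNA B cells held 819 and 250 CPM, overlapping between the groups. Other lists did not overlap in B cells: fibroblast markers, nearly all Dcn, stood at 202 and 52.0 CPM against 687 and 220 CPM, and platelet markers, nearly all Pf4, at 96.7 and 110 CPM against 254 and 283 CPM. Lower without overlap were mast cell markers (1514 and 565 against 87.3 and 111 CPM) and T cell markers (110 and 117 against 22.4 and 36.5 CPM). So were the B cell markers themselves, at 7027 and 9819 CPM against 5027 and 6446 CPM. The part of these markers in the listed genes' levels was not tested.

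The wider pathway was read from a further list of 57 genes, HIF subunits and regulators, other HIF targets and other glycolytic isoforms, of which 56 were in the tables. In macrophages 28 of the 51 tested were higher in siFXR1-LNA and 2 lower by edgeR, beside 9.64% of all genes called higher and 11.6% called lower. The largest changes were those of Nos2, the inducible nitric oxide synthase (log2 fold change 11.45), Hif3a, a HIF alpha subunit (6.15), Lox, a collagen cross-linking enzyme (5.18), Ppp1r3c, a glycogen-targeting phosphatase subunit (4.85), and Hilpda, a lipid droplet protein (4.20). Nos2 was not among the genes used for clustering, but it leads the Saa3 and Nos2 cluster, which lies almost entirely in siFXR1-LNA. The part of that cluster in its change was not tested. Hif1a passed at 1.27 ± 0.15 (edgeR adjusted p = 0.0125). Bpgm, the red cell enzyme that makes bisphosphoglycerate, was lower (-1.73), and so was Eno3.

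In tumor or mesothelial cells 14 of 50 pathway genes were higher and 1 lower by edgeR, beside 2.97% of all genes called higher and 5.02% called lower. Nos2 (5.02), Ak4, a mitochondrial adenylate kinase (3.56), Ero1l, an oxidase of protein folding (3.25), Tfrc, the transferrin receptor (2.39), and Hilpda (2.01) led, and Bpgm was the lower gene (-1.71). Tfrc did not pass in macrophages, and its group effect in tumor or mesothelial cells exceeded that in macrophages by 0.84 ± 0.73 on the log2 scale, which did not pass either (edgeR adjusted p = 0.690). B cells had 1 of 47 called higher, Nos2, beside 0.0966% of all genes. No level of Nos2 per barcode is set against the unnamed cluster here. So no expression of Nos2 by B cells or by tumor or mesothelial cells is read from these calls.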

How the data were processed

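The deposited files hold whole-number UMI counts per gene and barcode for 4 libraries, made by the authors with Cell Ranger (7.0.0 per the labels) on mm10; the labels name more than one kit version. The study left out 1 siFXR1-LNA replicate, described as having fewer reads and cells and not named further; here siFXR1-LNA replicate 2 has the fewer barcodes of its group (17309 against 54665) and the fewer UMIs (78179267 against 113606837), and all 4 libraries were used. Barcodes passing the study's limits (100 to 4800 genes, mitochondrial share up to 15%; 132644 barcodes, far more than the cells that the study states after these limits) were clustered with Seurat 5.3.0 (2000 variable genes, 50 components, resolution 0.1), with the 94 listed and pathway genes taken out of the variable genes. No doublet caller was run. Clusters were named where at least 3 fixed markers were raised 2-fold, a rule set after seeing the clusters. UMIs without the 10 hemoglobin genes were summed per library and type, where each library had at least 10 cells, and tested with edgeR 4.0.16 (TMM, filterByExpr, quasi-likelihood test, Benjamini-Hochberg adjustment over all genes, threshold 0.05; R 4.3.3). DESeq2 1.42.0 was an alternative. The tests were tried on simulated data. Genes were named for a fold change by a mean of at least 10 CPM and the 10 largest called changes per comparison, plus Car9, Ndufa4l2, Vegfa, Slc2a1, Pgk1, Ldha and Gapdh, and for the pathway list the 5 largest. Aldoa has a second identifier that was not used. The genes and lists were chosen with earlier results of these data known. Counts of genes at an unadjusted p under 0.05 are given throughout without the all-gene share at that threshold, so none is read as a result.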

Additional observations from a re-analysis of the deposited data

Results flagged for a closer look

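These values are differences of group effects (siFXR1-LNA over siCont-LNA, log2 scale) between cell types that passed in a joint edgeR fit with Benjamini-Hochberg adjustment; no explanation was tested. In tumor or mesothelial cells against macrophages they were Egln3 -2.95 ± 0.42 (SE), Ddit4 -2.61 ± 0.30, Pfkfb3 -1.79 ± 0.32 and Adm -4.68, which had 11 and 12 UMIs in siCont-LNA macrophages, too few to read its size here or against B cells. Of the 37 genes, 15 had an unadjusted p under 0.05, not read for want of an all-gene share at that threshold.

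In granulocytes against macrophages Bhlhe40, a transcriptional repressor, differed by 1.17 ± 0.36, and Car9 by 3.52, a size that is not read, since Car9 had 2 and 1 UMIs in siCont-LNA granulocytes and passed the filter through siFXR1-LNA. The other 14 group effects were lower in granulocytes, Pfkfb4 being negative in both types: Egln3 by -3.92, Slc2a1 by -2.84, Bnip3 by -2.59, Gys1 by -2.21, Ndrg1 by -1.74, Ankrd37 by -1.66, Mxi1 by -1.65, Vegfa by -1.61, Gbe1 by -1.54, Pfkfb3 by -1.47, Slc16a3 by -1.40, Pgk1 by -1.31, Pkm by -1.30 and Pfkfb4 by -1.05. Car9 per barcode was 0.130 and 0.0569 UMIs in siFXR1-LNA granulocytes and 0.134 and 0.0838 in macrophages, and in siCont-LNA 0.00443 and 0.00107 in granulocytes and 0.0297 and 0.0587 in macrophages.

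Comparisons with B cells were chosen after seeing the data. In macrophages against B cells 8 genes had the higher effect in macrophages, Adm by 4.55, Slc2a1 by 2.04, Ankrd37 by 1.99, Pfkfb3 by 1.82, Gys1 by 1.70, Ddit4 by 1.56, Egln3 by 1.53 and Gbe1 by 1.34, and 4 the lower, Car9 by -2.11, P4ha2 by -2.01, Bhlhe40 by -1.86 and P4ha1 by -1.42, where 3.23% of all genes tested were called. In granulocytes against B cells Egln3 differed by -2.38, Slc16a3 by -1.89, Bnip3 by -1.84 and Vegfa by -1.62, where 2.53% of all genes tested were called. Tumor or mesothelial cells against B cells gave 0 calls by edgeR (10 genes at an unadjusted p under 0.05), and T cells against B cells 0 (5 at an unadjusted p under 0.05). The counts at an unadjusted p are again not read.

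In shallow against deeper barcodes the siFXR1-LNA contrast fell below the siCont-LNA contrast for Egln3 by -1.68 ± 0.44 and for Pfkfb4 by -1.71 ± 0.42. These 2 of 37 genes stand beside 2.97% of all genes called in this contrast, and with no library block 0 passed.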

How the results depend on the processing

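Precision is limited by 2 libraries a group, so leaving out a library leaves an arm with 1, whose spread is assumed to be that of the others; causes of the changes below were not tested. Counts of the listed genes called (edgeR unless named) moved as follows, with the calls over all genes in the same fits in parentheses. The counts take both directions, and in mast cells a listed gene was lower without siFXR1-LNA replicate 2. In B cells, from 3 (14), DESeq2 gave 24 (461), no filter on low counts 26 (1330), and libraries left out in turn 0 to 26 (0 to 1253). In dendritic cells, from 3 (45), DESeq2 gave 9 (131), no filter 20 (649), resolution 0.3 gave 5 (101), and libraries left out 1 to 14 (16 to 460). In granulocytes, from 6 (209), no filter gave 13 (1197) and libraries left out 5 to 11 (170 to 1984), 1 gene being lower without the filter and without siCont-LNA replicate 1. In macrophages, from 32 (3140), the Alox15 and Prg4 cluster gave 0 (0), with Hk1 turning to -0.0237, and libraries left out 0 to 22 (1 to 1123), with 0 without siFXR1-LNA replicate 1. In mast cells, from 1 (28), DESeq2 gave 0 (21), no filter 2 (59), hemoglobin kept 2 (48), listed genes among the variable genes 2 (41), and libraries left out 0 to 3 (22 to 45). In migratory dendritic cells, from 13 (265), no filter gave 22 (643) and libraries left out 2 to 12 (14 to 369). In T cells, from 5 (38), DESeq2 gave 20 (335), no filter 23 (888) and libraries left out 4 to 15 (25 to 495). In tumor or mesothelial cells, from 26 (1047), libraries left out gave 10 to 30 (489 to 2132). In shallow barcodes, from 0 (0), DESeq2 gave 19 (787), no filter 17 (1251), leaving out the hemoglobin-dominated cluster 22 (1296), and libraries left out 0 to 10 (0 to 569). Shallow against deeper barcodes gave 0 (0) in siCont-LNA, 0 (0) in siFXR1-LNA and 0 (0) for their difference with no library block; the difference gave 0 (7) at 400 to under 1000 genes and 10 (2839) without the hemoglobin-dominated cluster; libraries left out gave 4 to 8 (1665 to 2990), 1 to 17 (241 to 7183) and 0 to 8 (38 or more). Differences between types with no filter were 14 (877) in tumor or mesothelial cells against macrophages, 7 (729) in granulocytes against B cells, 4 (336) in tumor or mesothelial cells against B cells and 3 (295) in T cells against B cells; libraries left out gave 1 to 10 (19 to 945), 1 to 15 (132 to 1679), 0 to 8 (0 to 957) and 0 to 5 (0 to 391) in that order, 4 to 21 (106 to 2273) for granulocytes against macrophages and 6 to 16 (184 to 1511) for macrophages against B cells.

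Log2 ratios of the summed level kept their direction under each alternative tried. With hemoglobin kept in the totals they became 0.89 in granulocytes, 1.36 in mast cells, 1.29 in unnamed barcodes, 1.47 in hemoglobin-dominated barcodes, 2.10, 1.43 and 1.70 at 100 to under 500, 500 to under 800 and 800 to under 1500 genes, and 1.76 over whole libraries. Without mitochondrial and ribosomal protein genes granulocytes gave 0.62. Without Gapdh they became 1.21 in tumor or mesothelial cells, 1.06 in unnamed barcodes, 1.248 and 1.24 at 500 to under 800 and 1500 to 4800 genes, and 1.36 over whole libraries. Libraries left out gave 0.55 to 0.61 in granulocytes, 0.76 to 0.94 in migratory dendritic cells, 0.93 to 1.13 in tumor or mesothelial cells, 0.74 to 1.03 in unnamed barcodes, 0.56 to 1.02 in hemoglobin-dominated barcodes, and 1.13 to 1.59 and 1.33 to 1.65 at 100 to under 500 and 800 to under 1500 genes.

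With the replicate number as a block the counts were 26 (846) in B cells, 9 (148) in dendritic cells, 18 (1775) in granulocytes, 0 (0) in mast cells, 21 (832) in migratory dendritic cells, 18 (344) in T cells and 27 (2135) in shallow barcodes, with 1 gene lower in granulocytes and 1 in shallow barcodes. The numbers share no stated origin, so same-numbered libraries were not taken as pairs. Over genes, the deviations of same-numbered libraries from their group means correlated from 0.0461 to 0.529 in 7 types and at -0.153 in tumor or mesothelial cells. These values do not settle whether such libraries are pairs. Over single genes and settings, 1606 values kept their side of the threshold, 289 lost it, 84 gained it and 1 turned. The minimum of 500 genes was not run for dendritic and migratory dendritic cells.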

Other observations

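Some genes outside the listed set that lead the unnamed barcodes are given here per barcode; they were chosen after their values were seen. In siFXR1-LNA replicates 1 and 2 Dcn, a matrix proteoglycan of stromal cells, had 1.49 and 0.782 UMIs per unnamed barcode, 1.40 and 0.551 per B cell, 1.45 and 0.624 per T cell, 1.42 and 0.655 per granulocyte and 1.28 and 0.582 per macrophage, against 3.08 and 3.79 per tumor or mesothelial cell. Ccn2, a matrix protein, had 1.06 and 0.604 per unnamed barcode, 1.11 and 0.448 per B cell and 2.81 and 3.22 per tumor or mesothelial cell. Tfrc, the transferrin receptor and itself on the pathway list, had 0.804 and 0.330, 0.776 and 0.282, and 2.71 and 2.48 in the same order.

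Pathway genes were also called in migratory dendritic, dendritic and mast cells, while counts for granulocytes and T cells are not given here. Migratory dendritic cells had 6 of 34 higher and 2 lower in siFXR1-LNA by edgeR, beside 1.57% of all genes called higher and 1.81% lower, dendritic cells 3 of 35 higher and 1 lower, beside 0.416% and 0.0767%, and mast cells 1 of 14 lower, Bpgm, beside 0.63% lower. In barcodes with 500 to under 800 genes 0 of 46 passed by edgeR, with 17 at an unadjusted p under 0.05, not read for want of an all-gene share. Set against deeper barcodes, 4 of 53 pathway genes had a lower shallow-to-deeper contrast in siFXR1-LNA than in siCont-LNA by edgeR, Nos2 by -4.22, Slc2a3 by -2.03, Cxcr4 by -1.48 and Hilpda by -1.45, beside 2.97% of all genes called in either direction.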
